A study of Homo sapiens with 20 samples.

Results

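MALAT1, NEAT1 and 8 host RNAs of small nucleolar RNAs (GAS5, ZFAS1, SNHG1, SNHG5, SNHG7, SNHG8, SNHG12 and SNHG15) are long non-coding RNAs, and these 10 genes were examined among the 58870 genes of the RNA-seq table. They were chosen by gene symbol, and each symbol matched 1 row. The 40 consensus FRA1 peaks that lay within 10 kb of these genes were taken from 54563 peaks. The study asked how the AP-1 transcription factor FRA1, the product of the gene FOSL1, acts on transcription in melanoma cells. RNA was sequenced from the human melanoma cell lines A375 and 1205Lu after control siRNA (si-NT) or siRNA against FOSL1 (si-FOSL1 in the labels, si-FRA1 here), in 12 samples with 3 per line and siRNA. FRA1 binding was profiled by Cut&Run, in which an antibody directs a nuclease to bound chromatin, in cells without siRNA in the labels, with 3 FRA1 samples and 1 IgG control sample in each line. The time after siRNA treatment is not given in the sources used here, and nothing states whether replicates came from separate cultures, so p-values measure the spread between these samples.

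MALAT1 is an unspliced RNA of nuclear speckles, the nuclear bodies rich in splicing factors, and NEAT1 is the RNA scaffold on which paraspeckles form. The other members are spliced RNAs whose introns hold small nucleolar RNAs (snoRNAs), the guides for modification of ribosomal RNA, and the spliced RNA that remains is often short-lived because it can be translated briefly and degraded by nonsense-mediated decay. Several of these hosts belong to the class that begins with a 5' terminal oligopyrimidine tract, a C followed by further C or T bases, as do the mRNAs of ribosomal proteins. In growing cells the levels of such host RNAs are known to vary with growth rate and translation.

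In GENCODE v44 on GRCh38, MALAT1 (ENSG00000251562.8) lies at chr11:65497640-65508073 on the plus strand and NEAT1 (ENSG00000245532.8) at chr11:65422774-65445540 on the same strand. Their starts are 402.7 kb and 477.6 kb from the start of FOSL1, the silenced gene. GAS5 (ENSG00000234741.8) lies at chr1:173858559-173868882 and SNHG12 (ENSG00000197989.14) at chr1:28578538-28583132, both on the minus strand. ZFAS1 (ENSG00000177410.12) lies at chr20:49278178-49299600 on the plus strand, SNHG1 (ENSG00000255717.6) at chr11:62851978-62855953 on the minus strand and SNHG5 (ENSG00000203875.11) at chr6:85650491-85678932 on the minus strand. SNHG7 (ENSG00000233016.6) lies at chr9:136721366-136728184 on the minus strand, SNHG8 (ENSG00000269893.7) at chr4:118278703-118285316 on the plus strand and SNHG15 (ENSG00000232956.8) at chr7:44983019-44986961 on the minus strand.

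The sequence at the start that the largest number of annotated transcripts share is shown for the hosts that begin with C, because an oligopyrimidine tract at the start is known for several snoRNA hosts. Each stretch holds 25 bases before and 25 bases from that start, 5' to 3' on the gene's strand. Capitals mark the pyrimidine run that begins at this annotated start, and no start of transcription was measured. The start was shared by 50 of 91 annotated transcripts for GAS5, 5 of 14 for ZFAS1 and 6 of 10 for SNHG7. It was shared by 5 of 15 for SNHG8, 4 of 19 for SNHG12 and 25 of 80 for SNHG1.
GAS5 chr1:173867965-173868014: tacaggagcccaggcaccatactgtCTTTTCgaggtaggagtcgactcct
ZFAS1 chr20:49278617-49278666: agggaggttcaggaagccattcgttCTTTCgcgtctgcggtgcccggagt
SNHG7 chr9:136728160-136728209: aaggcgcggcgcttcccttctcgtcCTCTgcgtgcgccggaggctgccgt
SNHG8 chr4:118278733-118278782: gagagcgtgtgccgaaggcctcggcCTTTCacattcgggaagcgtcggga
SNHG12 chr1:28581849-28581898: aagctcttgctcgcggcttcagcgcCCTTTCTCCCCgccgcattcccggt
SNHG1 chr11:62855861-62855910: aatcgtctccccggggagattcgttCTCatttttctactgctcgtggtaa

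A first base C within a run of at least 4 pyrimidines was found at the starts of 5 of the 10 members (GAS5, ZFAS1, SNHG7, SNHG8 and SNHG12). SNHG1 begins with C but its run is 3 bases long. The starts of MALAT1, NEAT1, SNHG5 and SNHG15 do not begin with C. Of the starts of all genes tested in A375, 4.54% met the rule, which was chosen after the letters were read. Of the 30 protein-coding snoRNA hosts described below, 17 met it (56.7%), and of 17 other host lncRNAs with a start in the annotation 3 did (17.6%).

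The RNA-seq totals lay between 20573412 and 32518903 counts per sample. The lowest count of any member in any sample was 229. Values are given as CPM, counts scaled to one library size with TMM factors, which depend on transcript length, so levels are compared between samples and not between genes. FOSL1 fell in both lines, from 413, 424 and 408 CPM with si-NT to 25.7, 25.7 and 26.0 CPM with si-FRA1 in A375, and from 492, 484 and 478 to 69.4, 70.9 and 65.1 CPM in 1205Lu. The log2 fold change of FOSL1 was -4.01 ± 0.030 (SE) in A375 and -2.84 ± 0.029 in 1205Lu. Of 8 melanocytic markers, SOX10 was present in both lines (914 ± 15.6 CPM in 1205Lu and 44 ± 0.434 CPM in A375 with si-NT, SD, n = 3), while PMEL and MLANA, genes of pigmentation, were under 1 CPM in every si-NT sample. The summed level of the 8 melanocytic markers was 1523 to 1558 CPM in 1205Lu and 97.5 to 101 CPM in A375 with si-NT, and 1260 to 1286 and 99.0 to 105 CPM with si-FRA1. Nearly all of the 1205Lu sum with si-NT was SOX10, S100B (mean 427 CPM) and S100A1 (mean 188 CPM). MITF, in the same list, went the other way, with a mean of 52.2 CPM in A375 and 3.55 CPM in 1205Lu with si-NT. Summed keratinocyte, immune and endothelial markers stayed at or under 2.73 CPM in every sample. The 5 fibroblast markers summed to 192 to 200 CPM in 1205Lu and 13.5 to 14.3 CPM in A375 with si-NT, and to 182 to 191 and 27.0 to 28.3 CPM with si-FRA1. In 1205Lu nearly all of this was PDGFRA, with a mean of 192 CPM with si-NT. The part of these shifts in the results was not tested. The share of mitochondrial transcripts was 9.85% to 10.5% with si-NT in both lines, 10.2% to 10.3% with si-FRA1 in A375 and 8.85% to 8.95% with si-FRA1 in 1205Lu. Protein-coding genes took 92.5% to 92.7% of counts with si-NT and 89.9% to 90.3% with si-FRA1 in A375. In 1205Lu they took 89.9% to 90.4% and 89.8% to 90.3%. The part of these shares in the results was not tested.

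Silencing of FRA1 raised the nuclear lncRNAs MALAT1 and NEAT1 in both lines and more in A375, while the snoRNA hosts were mixed in direction in A375 and more often higher in 1205Lu. In A375, 4 of the 10 members were higher with si-FRA1 (MALAT1, NEAT1, ZFAS1 and SNHG8), 3 were lower (SNHG1, SNHG12 and SNHG15) and 3 were not called. In 1205Lu, 7 were higher (MALAT1, NEAT1, GAS5, ZFAS1, SNHG7, SNHG12 and SNHG15), SNHG5 was lower and 2 were not called. A call is an edgeR quasi-likelihood adjusted p under 0.05 over all genes tested. In bulk RNA, a change in the share of cells that express a gene and a change in RNA per cell cannot be told apart. Calls were frequent among all genes. Of the 16899 genes tested in A375, 50.8% were called, 25.7% higher and 25.1% lower, and of the 17136 tested in 1205Lu, 40.5% were called, 20.6% higher and 19.9% lower. No member passed an absolute log2 fold change of 1 on silencing in either line, as 5.56% of all genes did in A375 and 3.13% in 1205Lu. The median log2 fold change of the 10 members was 0.0026 in A375, where that of all genes tested was -0.0026, and 0.29 in 1205Lu, where that of all genes tested was -0.0048.

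**Figure D1:**
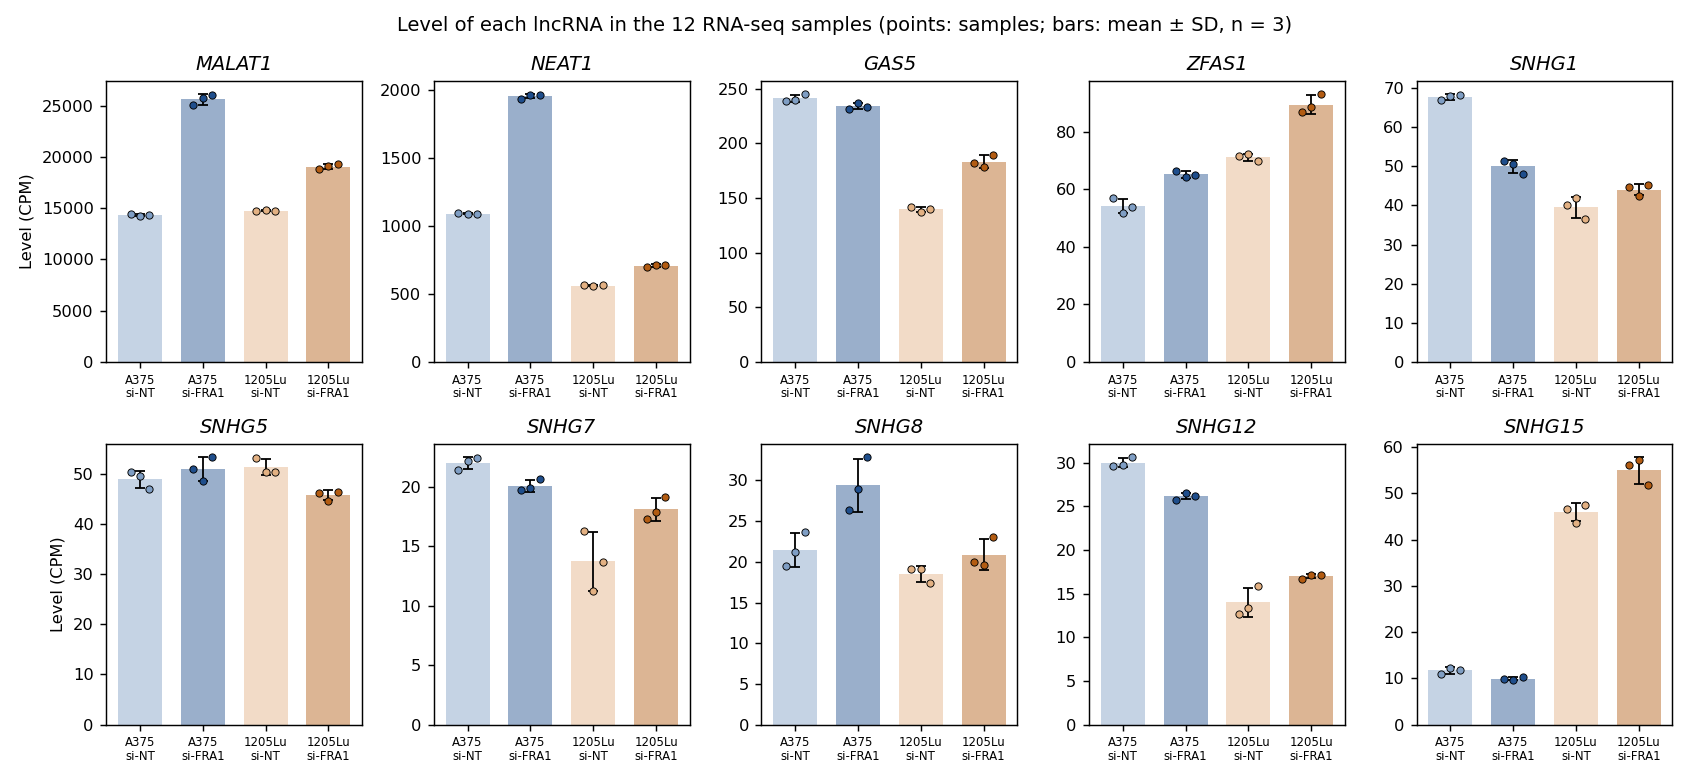
Level of each member in the 12 RNA-seq samples, in CPM on a linear axis that starts at 0 and differs between panels. Points are samples, bars the mean and error bars the SD (n = 3). MALAT1 and NEAT1 rise with si-FRA1 in both lines, SNHG1 falls in A375 from a mean of 67.7 to 50.0 CPM, and SNHG15 is far lower in A375 than in 1205Lu in every group.

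MALAT1 had 14402, 14226 and 14304 CPM in the A375 si-NT samples and 25068, 25789 and 26013 CPM in the A375 si-FRA1 samples. In 1205Lu it had 14779, 14785 and 14762 CPM in the control and 18835, 19092 and 19306 CPM after silencing. All si-FRA1 samples lay above all si-NT samples of their line, and the A375 si-FRA1 samples above all others. The log2 fold change was 0.84 ± 0.0083 (SE) in A375 (edgeR adjusted p = 1.9e-27) and 0.35 ± 0.0067 in 1205Lu (edgeR adjusted p = 1.2e-18), a rise of 1.78-fold and 1.28-fold. MALAT1 took 1.44% to 1.47% of all counts in the si-NT samples, 1.88% to 1.90% in the 1205Lu si-FRA1 samples and 2.52% to 2.61% in the A375 si-FRA1 samples. In A375, 4.51% of the genes tested had a larger fold change than MALAT1.

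NEAT1 followed MALAT1 closely in A375. It had 1093, 1088 and 1088 CPM in the control and 1933, 1960 and 1958 CPM after silencing in A375. In 1205Lu it had 562, 554 and 565 CPM in the control and 694, 713 and 713 CPM after silencing. The groups did not overlap in either line. The log2 fold change was 0.84 ± 0.013 in A375 (edgeR adjusted p = 8.1e-24) and 0.32 ± 0.016 in 1205Lu (edgeR adjusted p = 4e-12), 1.78-fold and 1.246-fold.

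Among non-coding RNAs, 5 that were picked after their values were seen were higher with si-FRA1 in A375 and not in 1205Lu. They were RN7SL1 and RN7SL2 (the RNA of the signal recognition particle), RN7SK (an inhibitor of transcription elongation) and RMRP and RPPH1 (the RNAs of RNase MRP and RNase P). Their median log2 fold change in A375 was 0.55. RPPH1 rose from 1594, 1666 and 1627 to 2491, 2577 and 2944 CPM there, a log2 fold change of 0.71 ± 0.034. The RMRP groups overlapped in A375, with 24.0, 25.2 and 34.5 CPM in the control and 35.2, 30.3 and 33.3 CPM after silencing. Its log2 fold change there was 0.24 ± 0.092 (edgeR adjusted p = 0.036). In 1205Lu none of the 5 was higher and RN7SL1, RN7SK and RMRP were lower, with a median of -0.17. RN7SK fell from 6988, 6714 and 6671 to 5519, 5457 and 5909 CPM in 1205Lu. The copies of RN7SL1 and RN7SL2 are near-identical and their split is uncertain. Whether the shift of these 5 RNAs has a part in the MALAT1 and NEAT1 values was not tested.

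Among the snoRNA hosts, ZFAS1, the host of the SNORD12 snoRNAs, was called higher in both lines. It had 57.0, 51.9 and 53.9 CPM in the control and 66.5, 64.2 and 64.9 CPM after silencing in A375. In 1205Lu it had 71.4, 72.3 and 69.8 CPM in the control and 86.8, 88.7 and 93.0 CPM after silencing. The log2 fold change was 0.26 ± 0.045 in A375 (edgeR adjusted p = 3e-05) and 0.31 ± 0.038 in 1205Lu (edgeR adjusted p = 1.1e-06), and the groups did not overlap in either line. SNHG8, a host whose gene lies beside the coding gene PRSS12, had 19.5, 21.2 and 23.7 CPM in the control and 26.4, 29.0 and 32.9 CPM after silencing in A375. Its log2 fold change was 0.44 ± 0.080 there (edgeR adjusted p = 5.9e-05). In 1205Lu it had 19.1, 19.1 and 17.4 CPM in the control and 20.02, 19.6 and 23.1 CPM after silencing, and the log2 fold change of 0.15 ± 0.079 was not called (edgeR adjusted p = 0.14).

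GAS5, which hosts box C/D snoRNAs and accumulates in growth-arrested cells, was called in 1205Lu and not in A375. It had 141, 138 and 140 CPM in the control and 182, 178 and 190 CPM after silencing in 1205Lu, a log2 fold change of 0.37 ± 0.029 (edgeR adjusted p = 2.1e-09). In A375 it had 239, 240 and 245 CPM in the control and 231, 237 and 234 CPM after silencing. The A375 groups did not overlap, yet the log2 fold change of -0.05 ± 0.024 was not called (edgeR adjusted p = 0.092).

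SNHG1, the host of the SNORD22 and SNORD25 to SNORD31 group, fell in A375 from 67.0, 67.9 and 68.3 CPM to 51.4, 50.5 and 48.01 CPM. Its log2 fold change of -0.44 ± 0.044 was the largest fall among the members (edgeR adjusted p = 7.4e-09). In 1205Lu it had 40.05, 41.8 and 36.6 CPM in the control and 44.7, 42.4 and 45.1 CPM after silencing. There the si-FRA1 samples lay above the si-NT samples, and the log2 fold change of 0.14 ± 0.056 was just outside the call (edgeR adjusted p = 0.051). It was called without si-NT replicate 2 (0.19, adjusted p = 0.018) and without si-FRA1 replicate 2 (0.18, adjusted p = 0.031) of 1205Lu, with upper-quartile scaling (adjusted p = 0.035), with no filter on low counts (adjusted p = 0.017) and with all 12 samples in one fit (adjusted p = 0.018).

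SNHG12 and SNHG15 had opposite signs in the lines. SNHG12 fell in A375 from 29.6, 29.8 and 30.6 CPM to 25.8, 26.5 and 26.2 CPM, a log2 fold change of -0.20 ± 0.058 (edgeR adjusted p = 0.0051). In 1205Lu it rose from 12.7, 13.4 and 15.9 CPM to 16.7, 17.1 and 17.1 CPM, a log2 fold change of 0.27 ± 0.092 (edgeR adjusted p = 0.026). The rise in 1205Lu was not called without any 1 of 5 of its 6 samples: the adjusted p was 0.13 without si-NT replicate 1, 0.073 without si-NT replicate 2, and 0.052, 0.058 and 0.057 without si-FRA1 replicates 1, 2 and 3. SNHG15 had 10.99, 12.3 and 11.8 CPM in the control and 9.95, 9.56 and 10.3 CPM after silencing in A375, a log2 fold change of -0.24 ± 0.099 (edgeR adjusted p = 0.042). In 1205Lu it rose from 46.6, 43.7 and 47.5 CPM to 56.1, 57.1 and 51.7 CPM, a log2 fold change of 0.24 ± 0.051 (edgeR adjusted p = 0.00064). The fall of SNHG15 in A375 was not called without any 1 of 5 of its 6 samples (adjusted p of 0.14 and 0.092 without si-NT replicates 2 and 3, and 0.081, 0.11 and 0.057 without si-FRA1 replicates 1, 2 and 3) nor with DESeq2 (adjusted p = 0.079).

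SNHG5 and SNHG7 were called in 1205Lu and not in A375. SNHG5, which hosts the SNORD50 snoRNAs, fell in 1205Lu from 53.1, 50.3 and 50.3 CPM to 46.2, 44.6 and 46.3 CPM, a log2 fold change of -0.19 ± 0.047 (edgeR adjusted p = 0.0033). In A375 its groups overlapped, with 50.3, 49.5 and 46.9 CPM in the control and 51.0, 48.5 and 53.3 CPM after silencing (0.05 ± 0.049, edgeR adjusted p = 0.38). SNHG7, which hosts SNORA17 snoRNAs, rose in 1205Lu from 16.3, 11.3 and 13.7 CPM to 17.3, 17.9 and 19.2 CPM, a log2 fold change of 0.37 ± 0.11 (edgeR adjusted p = 0.008). The si-NT samples of SNHG7 in 1205Lu were spread widely. In A375 it had 21.4, 22.2 and 22.4 CPM in the control and 19.7, 19.9 and 20.6 CPM after silencing (-0.14 ± 0.069, edgeR adjusted p = 0.099).

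The change on silencing differed between the lines for 8 of the 10 members in the interaction test of edgeR. Of the 19452 genes in that fit, 31.9% were called, 15.3% with a higher and 16.6% with a lower change in A375, and 5.09% were called with a difference past 1 on the log2 scale, which no member reached. The change was higher in A375 for MALAT1 by 0.47 ± 0.014 (edgeR adjusted p = 1.7e-18), for NEAT1 by 0.51 ± 0.022 (edgeR adjusted p = 2.3e-15) and for SNHG5 by 0.23 ± 0.068 (edgeR adjusted p = 0.011). It was lower in A375 for 5 hosts, with differences of -0.59 ± 0.070 for SNHG1, -0.52 ± 0.13 for SNHG7, -0.50 ± 0.096 for SNHG15, -0.48 ± 0.11 for SNHG12 and -0.43 ± 0.038 for GAS5. The largest edgeR adjusted p among these 5 was 0.0031, for SNHG7. No difference was called for ZFAS1 (-0.06 ± 0.058, adjusted p = 0.45) or SNHG8 (0.28 ± 0.12, adjusted p = 0.094). The difference for SNHG5 was not called without si-NT replicate 1 of 1205Lu (0.19, adjusted p = 0.054), and that of SNHG8 was called without si-FRA1 replicate 3 of 1205Lu (0.35, adjusted p = 0.046), si-NT replicate 3 of A375 (0.35, adjusted p = 0.046) or si-FRA1 replicate 1 of A375 (0.35, adjusted p = 0.04). FOSL1 itself fell further in A375, by 1.19 ± 0.044 on the log2 scale, and the part of this in the members' differences was not tested.

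**Figure D2:**
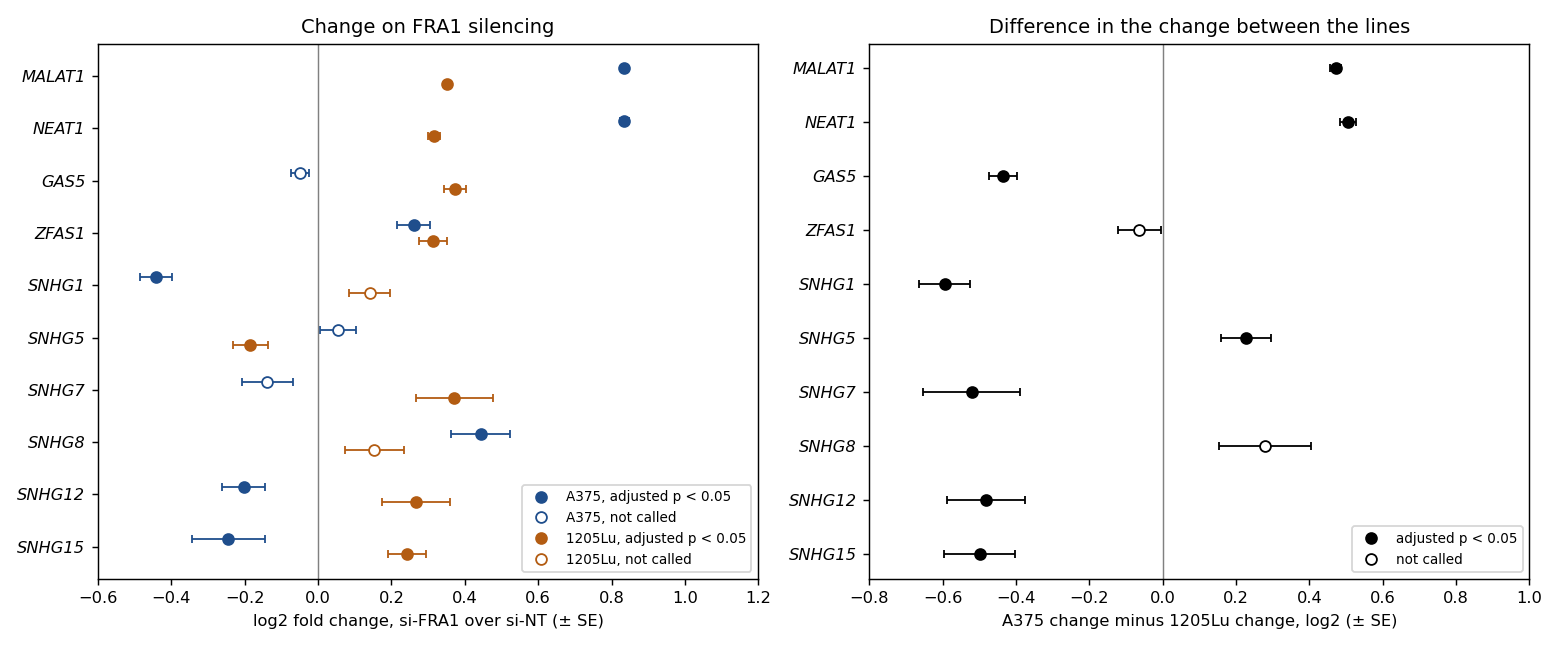
Log2 fold change on FRA1 silencing of each member in each line (left) and the difference of the 2 changes (right), each with its SE from the quasi-likelihood test. Filled points are called at an adjusted p under 0.05 and open points are not. MALAT1 and NEAT1 lie at 0.84 in A375, to the right of every other point, and 5 snoRNA hosts lie left of 0 in the right panel.

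Without silencing, the lines differed in 9 of the 10 members, on a background in which 78% of the 18050 genes tested were called, 39.2% higher and 38.8% lower in A375. SNHG15 and SNHG12 passed an absolute log2 difference of 1, as 40.2% of all genes did. SNHG15 was lower in A375 by 2.04 ± 0.066 on the log2 scale, with 10.99 to 12.3 CPM against 43.7 to 47.5 CPM (edgeR adjusted p = 3.3e-16). SNHG12 was higher in A375, with 29.6 to 30.6 CPM against 12.7 to 15.9 CPM and a log2 difference of 1.03 ± 0.081 (edgeR adjusted p = 4.9e-10). NEAT1, GAS5, SNHG1 and SNHG7 were also higher in A375, by 0.89 ± 0.016, 0.72 ± 0.027, 0.71 ± 0.049 and 0.59 ± 0.10 on the log2 scale. ZFAS1 was lower in A375, with a log2 difference of -0.47 ± 0.043 (edgeR adjusted p = 5.4e-09). MALAT1 (-0.12 ± 0.0049) and SNHG5 (-0.14 ± 0.046) were called lower in A375, and SNHG8 (0.14 ± 0.083) was not called. These 3 small differences depend on the filter on low counts: with no filter the difference of every member moved up by 0.13, so that MALAT1 stood at 0.01 (adjusted p = 0.47), SNHG5 at -0.01 (adjusted p = 0.87) and SNHG8 at 0.27 (adjusted p = 0.0021). Left-out samples moved 2 of these calls: SNHG5 was not called without si-NT replicate 1 of 1205Lu (adjusted p = 0.079) or si-NT replicates 2 and 3 of A375 (adjusted p = 0.052 and 0.18), and SNHG8 was called without si-NT replicate 1 of A375 (0.24, adjusted p = 0.017). The si-NT samples are shared with the comparisons on silencing.

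Over the 4 groups, MALAT1 was highest in A375 with si-FRA1, followed by 1205Lu with si-FRA1, and its si-NT samples lay at 14226 to 14402 CPM in A375 and 14762 to 14785 CPM in 1205Lu. NEAT1 and GAS5 had both A375 groups above both 1205Lu groups. In ZFAS1, 1205Lu with si-FRA1 was highest and A375 with si-NT lowest. SNHG1, SNHG7 and SNHG12 were highest in A375 with si-NT and lowest in 1205Lu with si-NT. For SNHG5, the samples of A375 with si-NT (46.9 to 50.3 CPM), A375 with si-FRA1 (48.5 to 53.3 CPM) and 1205Lu with si-NT (50.3 to 53.1 CPM) ran together, above 1205Lu with si-FRA1 (44.6 to 46.3 CPM). SNHG8 was highest in A375 with si-FRA1 and its other groups ran together between 17.4 and 23.7 CPM. SNHG15 had both 1205Lu groups above both A375 groups.

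**Figure D3:**
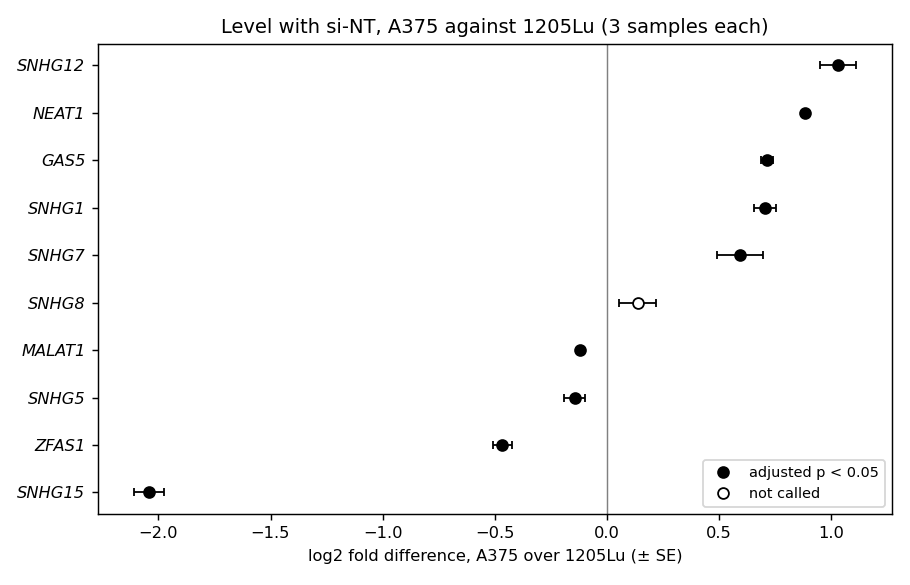
Log2 difference in level between A375 and 1205Lu with si-NT for each member, with its SE (3 samples in each line, filled points called at an adjusted p under 0.05). SNHG15 lies at -2.04 and SNHG12 at 1.03, and the members between them span -0.47 to 0.89.

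The snoRNAs themselves were hardly measured. The annotation used here gave 22 snoRNA genes inside 7 of the hosts on the same strand. It gave none inside GAS5, so the snoRNAs of GAS5 were not examined. Of the 22, 10 had 0 counts in all 12 samples, and the 22 together had 259 counts over the whole series. Only 1, a SNORA17B copy in SNHG7, reached 10 counts in 3 samples, with at most 29. The values of the host RNAs are thus not values of the snoRNAs.

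Other snoRNA host lncRNAs were mixed in direction in A375, and those called in 1205Lu were higher. Of 20 in the list 18 were tested, and 7 were higher and 5 lower in A375 (median log2 fold change 0.00059) while 10 were higher and 0 lower in 1205Lu (median 0.24). Over all genes tested, 25.7% were higher and 25.1% lower in A375, and 20.6% and 19.9% in 1205Lu. In A375, SNHG17 fell from a mean of 64.1 to 35.4 CPM (-0.86 ± 0.046) and CYTOR fell from 68.9 to 43.9 CPM (-0.66 ± 0.047). SNHG25 (1.23 ± 0.32, from 1.2 to 2.8 CPM) and SNHG19 (0.45 ± 0.14) rose in A375. In 1205Lu the largest rises were EPB41L4A-AS1, from 20.4 to 29.8 CPM (0.53 ± 0.065), and DANCR, from 28.0 to 39.8 CPM (0.49 ± 0.055), and both also rose in A375 (0.28 ± 0.060 and 0.26 ± 0.048). The list and the members were chosen with results of these data known.

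Protein-coding hosts of snoRNAs, most of them genes of ribosomal proteins and translation factors, were more often higher in A375 and more often lower in 1205Lu. Of 30 genes, 24 were higher and 5 lower in A375 (median 0.24), and 5 were higher and 16 lower in 1205Lu (median -0.05). The shares over all genes were 25.7% higher and 25.1% lower in A375, and 20.6% and 19.9% in 1205Lu. RPS20 (0.49 ± 0.021) and TPT1 (0.42 ± 0.015) rose in A375, from 442 to 622 and from 955 to 1282 CPM, while in 1205Lu RPS20 fell (-0.08 ± 0.019) and TPT1 rose (0.10 ± 0.015). NOP56 (-0.43 ± 0.030) and NCL (-0.23 ± 0.013), genes of nucleolar proteins, fell in A375. In 1205Lu, NAP1L4 fell (-0.34 ± 0.033) and EIF4A2 (0.24 ± 0.021) and RPL27A (0.16 ± 0.018) rose.

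Genes of the proteins that assemble with snoRNAs numbered 3 higher and 10 lower of 16 in A375, where 25.7% of all genes were higher and 25.1% lower. In 1205Lu 2 were higher and 4 lower, near the shares of all genes (20.6% and 19.9%). NOLC1, a chaperone of snoRNPs, fell most, from 256 to 43.7 CPM in A375 (-2.56 ± 0.030) and from 138 to 38.2 CPM in 1205Lu (-1.87 ± 0.037). NAF1, an assembly factor of box H/ACA particles, fell in A375 (-0.68 ± 0.073), and NOP56 fell in 1205Lu (-0.20 ± 0.034). NOP10 (0.23 ± 0.048) and ZNHIT3 (0.25 ± 0.095) rose in A375, and ZNHIT6 (0.28 ± 0.045) and NOP58 (0.10 ± 0.026) in 1205Lu. Of 10 genes of nonsense-mediated decay, which degrades many host RNAs, 2 were higher and 4 lower in A375 and 3 were higher and 1 lower in 1205Lu, beside the same shares of all genes. SMG5 fell in both lines, from 107 to 58.3 CPM in A375 (-0.88 ± 0.038) and from 130.5 to 76.2 CPM in 1205Lu (-0.79 ± 0.036). UPF1, the central helicase of the pathway, fell in A375 (-0.36 ± 0.029), where SMG8 (0.57 ± 0.077) and UPF3A (0.27 ± 0.046) rose. UPF2 (0.20 ± 0.044) and SMG6 (0.19 ± 0.046) rose in 1205Lu.

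Genes of paraspeckle proteins, the partners of NEAT1, mostly did not rise with it. Of 12, 1 was higher and 9 lower in A375 (median -0.14), and 4 were higher and 6 lower in 1205Lu (median -0.05). For this list and the next, the shares over all genes were 25.7% higher and 25.1% lower in A375. In 1205Lu they were 20.6% and 19.9%. PSPC1, a core paraspeckle protein, rose in both lines (0.43 ± 0.040 in A375 and 0.24 ± 0.037 in 1205Lu). SMARCA4, the chromatin remodeller ATPase, fell in both (-0.68 ± 0.021 and -0.37 ± 0.024), as did DAZAP1 (-0.50 ± 0.033 and -0.08 ± 0.032), and NUDT21 rose in 1205Lu (0.11 ± 0.028). Of 20 genes of nuclear speckles and of the processing of the MALAT1 end, 4 were higher and 9 lower in A375, and 5 were higher and 4 lower in 1205Lu. The speckle scaffold genes SRRM2 and SON fell in A375 (-0.69 ± 0.016 and -0.10 ± 0.020) and rose in 1205Lu (0.20 ± 0.014 and 0.26 ± 0.018), and SRRM1, a splicing coactivator, fell in both (-0.62 ± 0.025 and -0.08 ± 0.022). Subunits of RNase P, which cuts the end of MALAT1, and of RNase MRP were mixed in A375, where POP4 (0.29 ± 0.063), RPP40 (0.25 ± 0.094) and POP1 (0.15 ± 0.061) rose while RPP25 (-0.36 ± 0.084), POP7 (-0.31 ± 0.072) and RPP14 (-0.21 ± 0.066) fell. RPP38 rose in 1205Lu (0.38 ± 0.10). SRSF2, a splicing factor, fell in both lines (-0.27 ± 0.027 and -0.22 ± 0.032), and ELAC2, a tRNase Z, rose in A375 (0.08 ± 0.031) and fell in 1205Lu (-0.18 ± 0.049).

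Of 10 other abundant lncRNAs, 2 were higher and 2 lower in A375 and 4 were higher and 2 lower in 1205Lu. All genes tested gave 25.7% higher and 25.1% lower in A375, and 20.6% and 19.9% in 1205Lu. KCNQ1OT1, the imprinted nuclear antisense RNA, rose in both lines, from 100 to 185 CPM in A375 (0.88 ± 0.032) and from 799 to 1238 CPM in 1205Lu (0.61 ± 0.016). OIP5-AS1 fell in both, from 90.7 to 49.8 CPM (-0.87 ± 0.043) and from 54.4 to 28.1 CPM (-0.97 ± 0.053). NORAD, which binds PUMILIO proteins, rose in both lines (0.28 ± 0.018 and 0.15 ± 0.019), and TUG1 fell in A375 (-0.22 ± 0.030) and rose in 1205Lu (0.11 ± 0.025). PVT1 rose (0.38 ± 0.051) and MIR22HG fell (-0.25 ± 0.066) in 1205Lu.

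**Figure D4:**
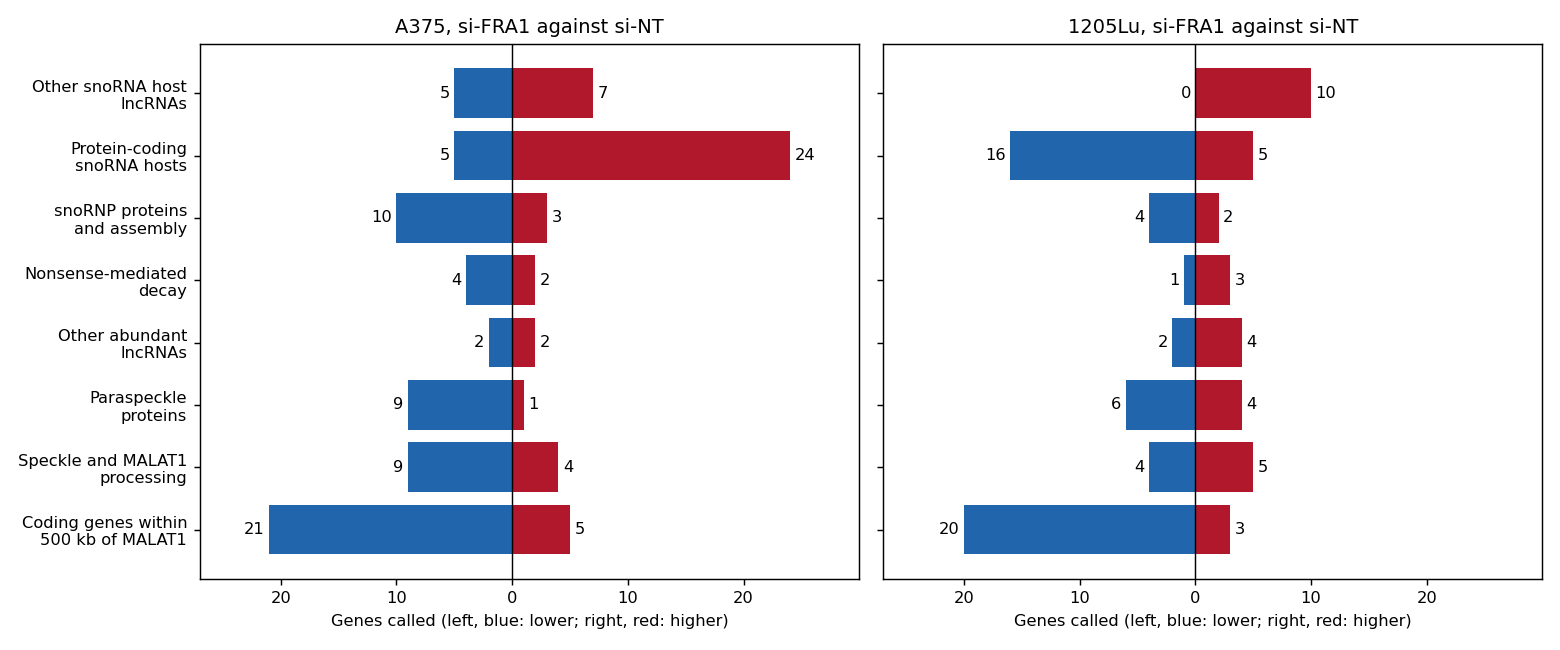
Number of genes in each list that were called lower (blue, left) or higher (red, right) with si-FRA1 against si-NT at an adjusted p under 0.05, in A375 and in 1205Lu. Protein-coding snoRNA hosts have 24 higher and 5 lower in A375 against 5 higher and 16 lower in 1205Lu, and other snoRNA host lncRNAs have 7 and 5 against 10 and 0. Of all genes tested, 25.7% were higher and 25.1% lower in A375, and 20.6% and 19.9% in 1205Lu.

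Some hosts share their promoter with a coding gene on the opposite strand. ZBTB37, 93 bp from the start of GAS5, was not called in A375 (-0.06 ± 0.052) and fell in 1205Lu (-0.32 ± 0.054), where GAS5 rose. ZNFX1, the neighbour of ZFAS1, rose in both lines like its partner, from 115 to 138.5 CPM in A375 (0.26 ± 0.030) and from 184 to 242 CPM in 1205Lu (0.38 ± 0.024). SLC3A2, 82 bp from the start of SNHG1, fell in A375 (-0.14 ± 0.044) and rose in 1205Lu from 124 to 201 CPM (0.69 ± 0.032). The libraries were strand-specific, but whether the counting used the strand is not given in the sources used here, so reads of overlapping genes on opposite strands may have been shared.

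FRA1 Cut&Run gave 21 peaks of the 40 enriched over IgG in A375 and 2 in 1205Lu. A peak was taken as enriched where every FRA1 sample of the line held 10 counts or more, and no fewer than 4 times the sum of the IgG count and 1. The rule carries no test, since each line had 1 IgG sample. By this rule 57.4% of all consensus peaks were enriched in A375 and 7.09% in 1205Lu. The totals in peaks were 3354095 to 5316527 counts for FRA1 in A375, 583750 to 897407 in 1205Lu, and 383994 and 314569 for IgG. The median peak held 5 to 6 counts with FRA1 in 1205Lu and 5 with IgG, against 30 to 47 and 6 in A375. With libraries scaled to the same total in peaks, 0 member peaks passed in either line. Those totals are counts inside peaks, so this scaling also takes out the enrichment that the peaks share. It was not counted over all peaks. In A375 the median FRA1 count was at least 2 times the IgG count at all 40 peaks, with a median of 6.5 times and a range of 2.07 to 15.5. In 1205Lu it was at or under the IgG count at 17 of 40, with a median of 1.33 times. These ratios were not counted over all consensus peaks, which the authors had called as enriched over background, so they mark nothing particular to the members. Over 8327 peaks, the counts of 1205Lu FRA1 replicates 2 and 3 agreed within sampling noise (chi-square divided by its degrees of freedom was 1.01, and 1.06 to 1.6 for other pairs), so both were counted as 1 sample in the test between lines.

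At MALAT1, the peak with centre at -4544 bp from the canonical start held 279, 440 and 345 FRA1 counts against 23 with IgG in A375. In 1205Lu it held 83, 167 and 126 counts against 20, and missed the rule there by 1 count in replicate 1. A second peak, at -8301 bp, held 188, 322 and 248 counts against 16 in A375 and 18, 17 and 11 against 13 in 1205Lu. The peak over the start itself, at -240 bp, was enriched in 1205Lu, with 13, 17 and 14 counts against 2, and not in A375, with 24, 25 and 42 against 7. A peak at the 3' end, at 9765 bp, held 146, 239 and 237 counts against 30 in A375. At NEAT1, 4 peaks were enriched in A375. The most distant, at 30636 bp (43, 70 and 70 counts against 7), lay past the 3' end of NEAT1. The others lay at -3741 bp (240, 300 and 278 against 22), at -576 bp (194, 327 and 264 against 26) and at 4307 bp (347, 605 and 522 against 68). No NEAT1 peak was enriched in 1205Lu, where the peak at -3741 bp came nearest with 27, 52 and 49 counts against 11.

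Of the hosts, GAS5 had an enriched peak over its start, at -51 bp, with 177, 295 and 261 counts against 30, and another at 6042 bp with 268, 421 and 407 against 49, both in A375. ZFAS1 had enriched peaks at -2168 bp (110, 204 and 142 counts against 15) and at 11202 bp (532, 896 and 806 against 59), while the peak over its start was not enriched (102, 175 and 154 against 28). The only peak enriched in both lines lay outside SNHG1, past its 3' end and 15341 bp downstream of its start. It held 608, 885 and 871 counts against 70 in A375 and 84, 137 and 114 against 16 in 1205Lu. A second SNHG1 peak at 5742 bp held 228, 364 and 365 counts against 53 in A375. The start peak of SNHG1 held 54, 58 and 71 against 15 and was not enriched.

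SNHG8 was the other host with an enriched peak at its start in A375, at -19 bp with 38, 58 and 39 counts against 6, and it had another at 2485 bp with 15, 22 and 27 against 2. SNHG5 had enriched peaks at 4102 bp (99, 169 and 129 counts against 21), 7441 bp (89, 171 and 118 against 17) and, past its 3' end, 35238 bp (54, 77 and 70 against 10). SNHG7 had them at 5824 bp (126, 210 and 197 against 21) and, past its 3' end, 17180 bp (53, 92 and 70 against 8). SNHG15 had 1, at -3626 bp, with 29, 41 and 31 counts against 3, and SNHG12 had none. Of the 21 peaks enriched in A375, 13 lay within 3 kb of an annotated start of the member, and 1 of 2 did in 1205Lu. This is near the share of all member peaks, of which 24 of 40 did. Any annotated start counted, so the MALAT1 peak at 9765 bp and the ZFAS1 peak at 11202 bp are among the 13. Members that rose on silencing in A375 (MALAT1, NEAT1, ZFAS1 and SNHG8) and members that fell (SNHG1 and SNHG15) both had peaks enriched in A375 within 10 kb, and SNHG12, which fell, had none.

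**Figure D5:**
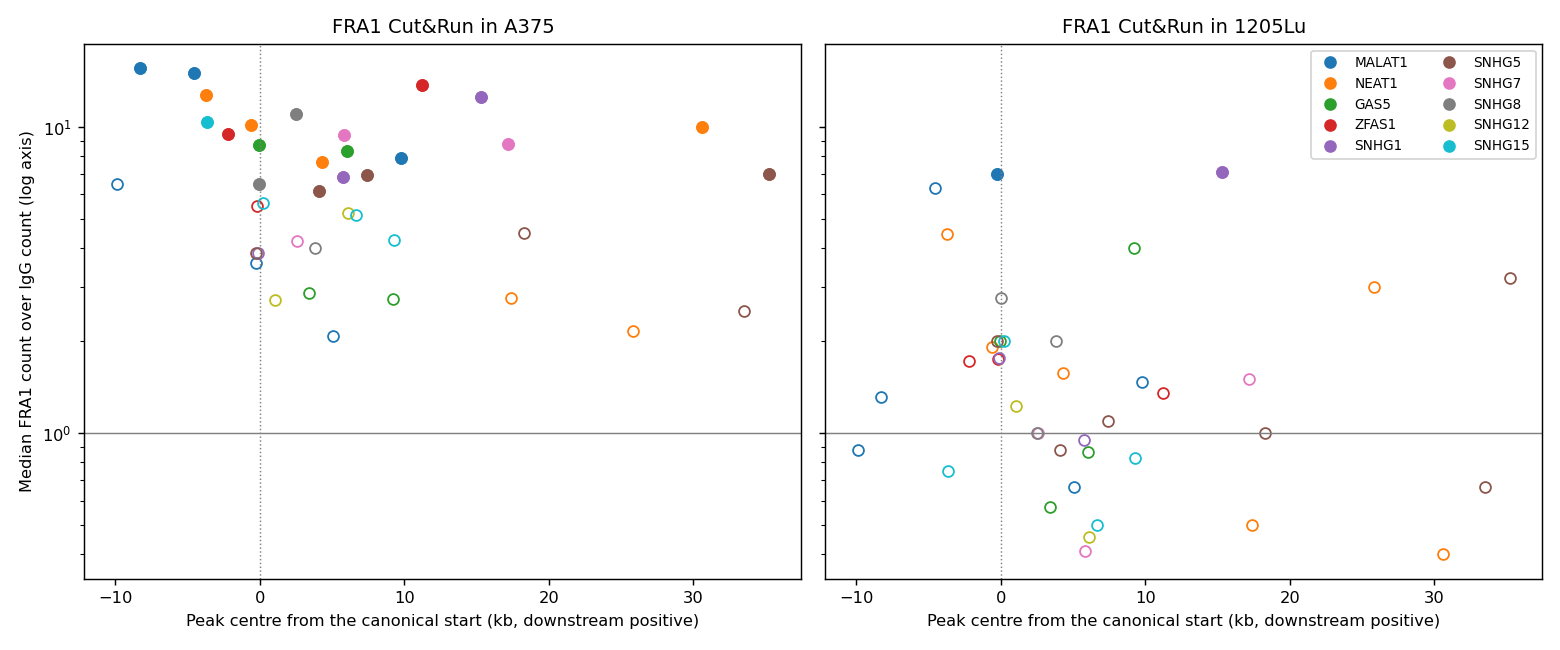
Median FRA1 count over the IgG count (log axis, grey line at 1) for the 40 consensus peaks within 10 kb of the members, against the distance of the peak centre from the canonical start in kb, in A375 and 1205Lu. Filled points met the rule for enrichment and colours mark the member. All 40 peaks lie above 2 in A375, while 17 lie at or under 1 in 1205Lu. The ratios were not counted over all consensus peaks.

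Between the lines, FRA1 counts relative to the other peaks were higher in A375 at 11 of the 40 member peaks and higher in 1205Lu at 7 (edgeR, all 53300 peaks tested, where 29% were higher in A375 and 24.3% higher in 1205Lu). DESeq2 gave 6 and 7, and scaling to the total in peaks alone gave 14 and 5. Of the 11, 9 were enriched over IgG in A375, and of the 7, 1 was enriched over IgG in 1205Lu. The largest difference toward A375 was the GAS5 peak at 6042 bp, where 1205Lu had 14, 9 and 13 counts against 15 with IgG, with a log2 difference of 2.20 ± 0.27 (edgeR adjusted p = 1.5e-07). The NEAT1 peaks at 30636 bp (1.61 ± 0.44) and 4307 bp (1.17 ± 0.22) were also higher in A375. At MALAT1 the peak at -240 bp (-1.65 ± 0.34) and that at -4544 bp (-1.14 ± 0.20) were relatively higher in 1205Lu and the peak at -8301 bp (1.3 ± 0.24) in A375. At SNHG15, 3 of 4 peaks were relatively higher in 1205Lu. The peak at its start (249 bp, -1.94 ± 0.24) held 25, 26 and 26 counts against 13 with IgG in 1205Lu, and the other peaks held 17, 14 and 7 against 17 and 11, 8 and 9 against 18, no more than IgG.

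The FOS/JUN motif TGACTCA, searched on both strands (as TGAGTCA on the other strand), was found in 13 of the 40 member peaks over their whole width (32.5%) and in 57.7% of all consensus peaks. The member peaks were wider, with a median of 951.5 bp against 715 bp. They were also picked for lying near genes, and 24 of the 40 lay within 3 kb of an annotated start. No motif share was taken over other peaks placed alike, so these shares cannot tell position from a trait of the members. Within 100 bases of the centre, 3 of 40 member peaks (7.5%) and 28.5% of all peaks held it, and none of the 22 member peaks enriched in either line did. None of the 10 members held it from 250 bases before to 50 after the most shared start, as 3.44% of all genes tested in A375 did. For some members that start is not the canonical one. It was 65499045 against 65497640 for MALAT1, 28581873 against 28582986 for SNHG12 and 44986668 against 44986961 for SNHG15. The windows of these members leave out their canonical starts. Among RefSeq promoter windows, from another annotation that covered 8 members, 0 of 9 member windows and 4.95% of all windows held it. The MALAT1 peak at -4544 bp held 3 copies, at -1088, -667 and 978 bp from its centre. They are shown on the plus strand because this peak had the highest FRA1 counts at MALAT1 in both lines, with the motif in capitals.
MALAT1 chr11:65491985-65492031: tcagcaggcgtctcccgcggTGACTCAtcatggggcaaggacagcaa
MALAT1 chr11:65492406-65492452: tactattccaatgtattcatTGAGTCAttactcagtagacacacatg
MALAT1 chr11:65494051-65494097: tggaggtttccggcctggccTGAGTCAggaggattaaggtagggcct

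The related cyclic AMP response element TGACGTCA, which reads the same on both strands and does not overlap the first motif, was in 4 of the 40 member peaks (10%) and in 1.33% of all peaks. It lay within 100 bases of the centre in 3 of them (7.5%, all peaks 0.464%), at the starts of NEAT1, GAS5 and SNHG15. Here too the set of all peaks was not matched to the member peaks in position. In the window from 250 bases before to 50 after the most shared start it was found in 2 members, GAS5 and SNHG15, and in 2.63% of all genes tested in A375. The count depends on the start taken. In the RefSeq promoter windows, 0 of 9 member windows and 1.85% of all windows held it. NEAT1 and SNHG15 had no RefSeq window. These stretches are shown on the plus strand, with the motif in capitals, since they lie at the centres of start peaks.
NEAT1 chr11:65422234-65422281: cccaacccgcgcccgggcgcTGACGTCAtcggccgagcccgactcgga
GAS5 chr1:173868012-173868059: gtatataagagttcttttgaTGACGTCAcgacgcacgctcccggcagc
SNHG15 chr7:44986721-44986768: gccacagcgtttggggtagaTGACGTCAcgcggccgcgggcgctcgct
Of these 3 start peaks, those of NEAT1 and GAS5 were enriched over IgG in A375 and that of SNHG15 was not, with 31, 56 and 45 counts against 8. On silencing in A375, NEAT1 rose, GAS5 was not called and SNHG15 fell.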

How the data were processed

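RNA-seq was analysed in 12 samples and Cut&Run in 8. For RNA-seq the authors removed adapters with cutadapt 1.8.1, aligned to GRCh38 with STAR 2.7.7a and estimated reads per gene with RSEM 1.3.0, per the submitters' processing notes and the paper's methods, and deposited expected counts, given as whole numbers and not normalized. Cut&Run reads were aligned by the authors with Bowtie2 2.4.1, who called peaks with MACS2 2.1.1.20160309 and deposited raw counts per consensus peak. Whether the peak calls used single or pooled samples is not given in the sources used here.

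Genes were tested in edgeR 4.0.16 (R 4.3.3: filterByExpr, TMM, quasi-likelihood test) with Benjamini-Hochberg adjustment over all genes tested, each line on its own, the interaction and the si-NT difference in fits of their own. The SE is the log2 fold change divided by the square root of the F statistic. CPM used TMM sizes of all 12 samples. Peaks were tested likewise on FRA1 samples. Gene positions came from GENCODE v44 and sequences from GRCh38 (pysam). Canonical starts are those the annotation marks, which can differ from the gene model the authors counted on.

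The members and lists were chosen with earlier results of these data known. Text names all members and FOSL1, the 2 largest rises and falls called in each list and line, partners within 2 kb of a start on the other strand, genes within 500 kb of MALAT1 by the same rule, the 3 genes most alike in pattern to MALAT1, NEAT1 and GAS5, and peaks within 10 kb. Some genes that this rule selects are not reported here. RN7SL1, RN7SL2, RN7SK, RMRP and RPPH1 were added after values were seen. On simulated counts the test recovered 89 of 100 genes changed by 0.5 on the log2 scale in A375 and 88 of 100 in 1205Lu, and 100 of 100 changed by 1 in each. Alternatives were DESeq2 1.42.0, other scaling, filters, fold limits, windows and limits over IgG, a replicate block and left-out samples.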

Additional observations from a re-analysis of the deposited data

Results flagged for a closer look

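The change on FRA1 silencing differed between A375 and 1205Lu by the interaction test of edgeR for 8 members. The difference, as the A375 change minus the 1205Lu change on the log2 scale, was 0.47 for MALAT1, 0.51 for NEAT1 and 0.23 for SNHG5. It was -0.43 for GAS5, -0.59 for SNHG1, -0.52 for SNHG7, -0.48 for SNHG12 and -0.50 for SNHG15. MALAT1 and NEAT1 rose in both lines, so the difference is one of size. For SNHG12 and SNHG15 the change was called lower in A375 and higher in 1205Lu. Groups of 3 samples are too small for the outlier test.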

How the results depend on the processing

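Of 390 refits of single members' fold changes, 361 kept direction and side of the threshold, 19 lost the call, 9 gained one and 1 reversed (MALAT1 between the lines with si-NT, 0.0139 with no filter on low counts, where its call was lost). The fall of SNHG15 in A375 lost its call with upper-quartile scaling (adjusted p = 0.058), no filter (0.18) and the replicate block (0.053), and GAS5 in A375 was called with TMM factors from protein-coding genes (-0.06, adjusted p = 0.034). A fold limit of 1 left 0 members in A375, 0 in 1205Lu, 0 in the interaction and 2 between the lines, and a limit of 0.5 left 2, 0 and 3 in the first 3. Leaving out 1 sample gave 6 to 7 members in A375, 7 to 8 in 1205Lu, 7 to 9 in the interaction and 8 to 10 between the lines. Same-numbered samples did not deviate together (correlations of -0.016 to 0.019). This shows no sign of pairing but cannot exclude that samples of one number were handled together, which the labels do not give. The replicate block gave 6 members in A375, 8 in 1205Lu, 8 in the interaction, 9 between the lines and 15 peaks that differed. Peaks enriched over IgG numbered 35 in A375 and 5 in 1205Lu at 2 times IgG, 5 and 0 at 8 times, 0 and 0 with libraries scaled to one total in peaks, 13 and 1 within 3 kb of a start, 33 and 4 within 50 kb, and 21 to 26 and 2 to 4 with 1 FRA1 sample left out (4 without 1205Lu replicate 1). Member peaks that differed between the lines numbered 12 to 20 with 1 sample left out and 30 within 50 kb. The causes were not tested. The median count per peak in 1205Lu was 5 to 6 with FRA1 and 5 with IgG, under the 10 counts that the rule for enrichment needs.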

Other observations

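MALAT1 and NEAT1 lie in a gene-dense stretch of chromosome 11. Of 51 protein-coding genes within 500 kb of MALAT1, 41 were tested in A375, of which 5 were higher and 21 lower with si-FRA1, and 44 in 1205Lu, of which 3 were higher and 20 lower. Among all genes tested, 25.7% were higher and 25.1% lower in A375, and 20.6% and 19.9% in 1205Lu. The median log2 fold change was -0.15 in A375 and -0.18 in 1205Lu. FOSL1, the silenced gene, is among them. MRPL49, a mitochondrial ribosomal protein gene, fell in both lines (-1.17 ± 0.060 in A375 and -0.79 ± 0.051 in 1205Lu), as did POLA2, a subunit of DNA polymerase alpha (-1.16 ± 0.095 and -0.89 ± 0.092). FAM89B rose in both lines (0.62 ± 0.054 in A375 and 0.29 ± 0.078 in 1205Lu), SLC25A45 rose in A375 (0.54 ± 0.21) and fell in 1205Lu (-0.55 ± 0.11), and AP5B1 rose in 1205Lu (0.30 ± 0.071).

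The genes whose pattern over the 12 samples was most like that of MALAT1, among 9692 genes with at least 100 counts in every sample, were FRS2, FTL and ENTPD7, with mean absolute differences of 0.06, 0.06 and 0.07 on the centred log2 scale. FTL, the ferritin light chain gene, went from 2291 to 4105 CPM in A375 and from 2144 to 3221 CPM in 1205Lu. For NEAT1 they were GALNT10, SAMD9L and FAM89B (0.05, 0.08 and 0.09), and for GAS5 PIP5K1A, PPP1R15B and TOP2B (0.03, 0.04 and 0.04). The patterns describe 4 groups in 2 lines and the points share libraries.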
